A study of Mus musculus with 8 samples.

Results

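The 9 transcription factor genes with roles in T follicular helper (Tfh) cells (Bcl6, Ascl2, Tox, Tox2, Pou2af1, Cebpa, Maf, Batf and Irf4) were followed by bulk mRNA sequencing. They were taken by name, 9 of the 16735 genes listed in both experiments, and all 9 were among the 14418 genes with enough counts for testing. The cells were Tfh cells of K/BxN mice, which develop spontaneous autoimmune arthritis, and all groups carried a Th17 fate-mapping reporter that leaves the fluorescent protein ZsGreen in cells with a Th17 past. Cells without and with ZsGreen were taken from Peyer's patch, a gut lymphoid organ, and from spleen, which gives 4 groups. The study asked which genes mark the Th17-derived, ZsGreen+ Tfh cells. Every group was sorted with the same surface phenotype (CD4+, TCRβ+, CD25-, CXCR5+, PD-1+) and differed only in the ZsGreen gate and the tissue. The sources used here do not give the alleles behind the reporter, the age and number of the mice, or any pooling.

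Tfh cells, a CD4+ helper lineage, enter B cell follicles and sustain the germinal centre response. BCL6 is the repressor that defines them: it holds down genes of the other helper lineages and of T cell migration, and it and BLIMP-1, the product of Prdm1, repress each other. ASCL2 is a basic helix-loop-helix factor that induces the homing receptor CXCR5, TOX and TOX2 are related HMG-box proteins, and the Pou2af1 product (OBF-1) is a coactivator of the octamer-binding factors OCT1 and OCT2, best known from B cells. C/EBPα, the product of Cebpa, is a leucine zipper factor best known from myeloid cells, liver and fat. MAF promotes the cytokine gene Il21 in Tfh and Th17 cells, and BATF and IRF4 bind DNA together in activated T cells, in both Tfh and Th17 differentiation.

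Each group had 2 libraries, one from each of 2 experiments, and replicate 1 or 2 below means experiment 1 or 2. Total estimated counts per library ran from 10009823 to 15323743, and the members' counts in a library from 29 (Cebpa, spleen ZsGreen+ replicate 2) to 20701 (Maf, Peyer's patch ZsGreen+ replicate 1). Levels are CPM, counts relative to library size, with the size corrected for RNA composition by TMM. Nothing in the labels says that the 2 libraries came from separate animals, so p-values measure the spread between these libraries, which may be technical in part. Over all genes tested the experiments differed more than the groups. The median absolute log2 difference was 1.01 between experiments and 0.199 to 0.327 in the comparisons of groups. For Tox, Pou2af1, Ascl2 and Tox2 the largest fold change between groups exceeded the median gap between experiments. Values are therefore given for each library and differences within each experiment. Genes of CD4 T cells (Cd3e, Cd3g, Cd4, Cd5, Lck and Trac) were detected in all 8 libraries, with a summed level from 4393 to 29966 CPM. The libraries are bulk samples, in which fewer cells of a type and less RNA per cell cannot be told apart.

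The sequences before the start sites of the members that varied together across the groups (below) are shown first. RefSeq promoter windows (GRCm38.p6) were held for 7 of the 9 members, 12 windows in all, and not for Tox or Maf. The 250 bases before the start were searched on both strands for the letters of the STAT and BCL6 motif TTCNNNGAA, the AP-1 motif TGANTCA, the IRF motif GAAANNGAA, the C/EBP motif TTGCNNAA, the octamer ATGCAAAT, the TATA box TATAAA and the E-box CANNTG. Matches other than the E-box are in capitals, and none overlapped another in the sequences shown, which run 5′ to 3′ on the gene's strand.
Bcl6, upstream start (chr16:23988853-23989102, minus strand): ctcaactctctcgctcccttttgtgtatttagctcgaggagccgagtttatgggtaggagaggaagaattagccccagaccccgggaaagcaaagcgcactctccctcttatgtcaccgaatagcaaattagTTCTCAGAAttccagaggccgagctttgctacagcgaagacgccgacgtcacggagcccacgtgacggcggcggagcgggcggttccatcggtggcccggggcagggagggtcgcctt
Bcl6, downstream start (chr16:23981284-23981533, minus strand): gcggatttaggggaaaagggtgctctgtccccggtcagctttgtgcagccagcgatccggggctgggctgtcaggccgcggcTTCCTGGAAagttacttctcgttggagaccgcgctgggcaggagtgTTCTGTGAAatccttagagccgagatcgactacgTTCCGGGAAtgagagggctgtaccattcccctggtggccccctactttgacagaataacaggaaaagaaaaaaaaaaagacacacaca
Pou2af1 (chr9:51213440-51213689, plus strand): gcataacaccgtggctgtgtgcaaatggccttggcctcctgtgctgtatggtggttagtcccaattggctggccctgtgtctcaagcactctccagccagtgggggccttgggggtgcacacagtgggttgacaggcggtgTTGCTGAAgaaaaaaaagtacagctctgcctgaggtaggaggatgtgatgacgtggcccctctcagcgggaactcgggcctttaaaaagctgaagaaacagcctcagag
Cebpa (chr7:35119043-35119292, plus strand): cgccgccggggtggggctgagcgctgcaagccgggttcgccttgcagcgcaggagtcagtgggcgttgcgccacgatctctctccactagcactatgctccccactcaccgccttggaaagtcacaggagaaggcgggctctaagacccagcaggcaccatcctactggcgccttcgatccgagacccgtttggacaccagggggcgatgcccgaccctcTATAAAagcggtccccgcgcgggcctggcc
Tox2, downstream start (chr2:163225203-163225452, plus strand): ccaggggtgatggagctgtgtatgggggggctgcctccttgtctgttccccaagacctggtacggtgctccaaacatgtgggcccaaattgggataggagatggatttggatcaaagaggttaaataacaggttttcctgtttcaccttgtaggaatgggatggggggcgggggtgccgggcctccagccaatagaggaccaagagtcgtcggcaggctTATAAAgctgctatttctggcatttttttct
Both Bcl6 windows hold TTCNNNGAA, 1 match before the upstream start and 3 before the downstream start. Over all 32851 RefSeq windows cut the same way, 7.02% hold that motif. TATAAA was in 4 of the 12 windows of members, those of Cebpa and Irf4 and 2 of the 5 Tox2 windows, which lie 1 base apart, and in 12.37% of all windows. The other 3 Tox2 windows, not shown, hold none of the motifs in capitals. Pou2af1 has TTGCNNAA 109 to 102 bases before its start, a motif held by 9.564% of windows. No window of a member holds TGANTCA, GAAANNGAA or ATGCAAAT, letters found in 6.749%, 7.129% and 1.601% of all windows. The E-box was in 8 of the 12 windows and in 66.22% of all windows. A match is a run of letters, and binding was not measured.

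Per length of transcript, Maf, Cebpa, Tox2 and Batf were the most abundant members in experiment 1 and Batf and Tox2 in experiment 2. In CPM per kilobase of exon (exon lengths from GENCODE M21, GRCm38), the median over the 4 groups in experiment 1 was 94.5 for Maf, 86.3 for Cebpa, 85.0 for Tox2, 66.1 for Batf and 39.7 for Pou2af1. The same scale gave 25.9 for Tox, 23.4 for Bcl6, 12.2 for Irf4 and 6.08 for Ascl2. In experiment 2 the order was different. Batf led with 244 CPM per kilobase and Tox2 followed with 145, while Cebpa had 5.67 and Irf4 4.52.

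Cebpa had the largest gap between the experiments, with a level in experiment 1 a median of 15.01 times that in experiment 2 over the 4 groups. Only 1.38% of the genes tested had a gap that large in either direction, and the median gene had a gap of 2.02-fold. Maf was 4.94-fold, Bcl6 4.38-fold and Irf4 2.74-fold higher in experiment 1, and Batf was 3.43-fold and Tox2 1.73-fold higher in experiment 2. Libraries were prepared, per the labels, either after poly A selection or with a low-input kit that keeps no strand, with no assignment to libraries. The part of the preparation in this gap was not tested. Without strand, reads of genes on opposite strands cannot be told apart. Overlap with an annotated gene on the other strand covered 5.34% of the exon length of Maf, 3.42% of Tox, 1.93% of Cebpa and 0.313% of Bcl6, and none of the other 5 members.

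**Figure D1:**
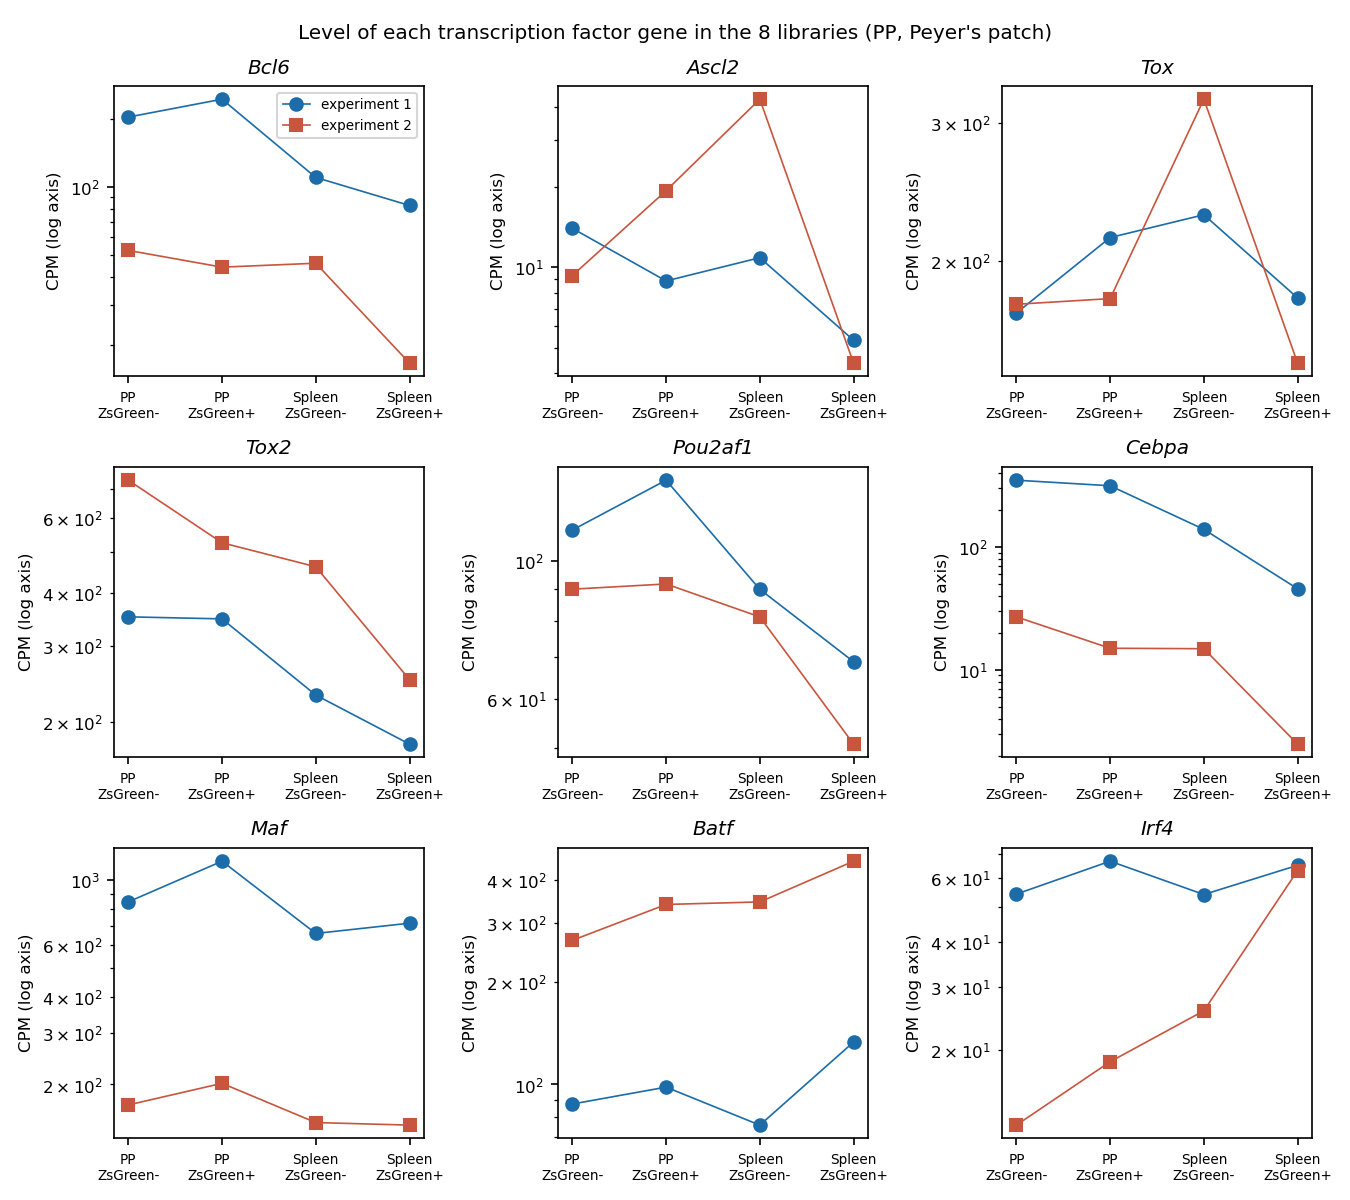
Level of the 9 genes in each library, in CPM on a log axis; blue circles are experiment 1, red squares experiment 2, and lines join the 4 groups of an experiment. The gap between experiments is largest for Cebpa (15.01-fold at the median), and Cebpa and Tox2 fall through the 4 groups in the same order in both experiments.

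The first comparison asked whether Tfh factors differ between ZsGreen+ and ZsGreen- cells within Peyer's patch. No member passed the test there (edgeR's quasi-likelihood test, Benjamini-Hochberg adjusted p under 0.05 over all genes tested), where 0.437% of the genes tested passed (0.284% higher, 0.153% lower). One member, Maf, had an unadjusted p under 0.05, as had 1172 of all genes, and DESeq2 also called 0 of the 9. The members' median log2 fold change was 0.15, beside 0.00 over all genes tested.

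Bcl6 stood at 204 CPM in Peyer's patch ZsGreen- and 244 CPM in ZsGreen+ cells of experiment 1, and at 52.4 and 44.2 CPM in experiment 2. The sort therefore went opposite ways in the 2 experiments, and its log2 fold change was 0.04 ± 0.26 (SE, adjusted p = 0.988). Maf had 844 and 1164 CPM in experiment 1 and 170 and 202 CPM in experiment 2, higher in ZsGreen+ cells of both, with 0.36 ± 0.16 (adjusted p = 0.609, edgeR). Batf was likewise higher in ZsGreen+ cells of both experiments, 87.6 against 98.2 and 266 against 340 CPM, at 0.25 ± 0.16 (adjusted p = 0.750). Cebpa and Tox2 were lower in ZsGreen+ cells of both, with -0.44 ± 0.23 (adjusted p = 0.703) and -0.25 ± 0.18 (adjusted p = 0.788). For all 9 genes the adjusted p was between 0.609 and 0.990. In Ascl2 and Irf4 the standard errors of 0.70 and 0.58 leave room for sizeable differences either way.

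In the spleen, ZsGreen+ Tfh cells had less Cebpa, Tox, Tox2 and Pou2af1 mRNA and more Batf mRNA than ZsGreen- Tfh cells. These 5 of 9 members passed the test, where 8.62% of the genes tested passed (4.09% lower, 4.53% higher). The members' median log2 fold change was -0.63, beside -0.03 over all genes. Cebpa changed most among the 5 that passed.

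Cebpa had 139 CPM in ZsGreen- and 45.7 CPM in ZsGreen+ cells of experiment 1, and 14.9 and 2.49 CPM in experiment 2. It was lower in the ZsGreen+ library of each experiment, with a log2 fold change of -1.95 ± 0.27 (adjusted p = 0.00344), which is 3.87-fold lower. It passed with each of the 8 libraries left out in turn, with an adjusted p of at most 0.0264. The 7 myeloid genes measured summed to 19.8 and 12.4 CPM in spleen ZsGreen- and to 14.0 and 6.0 CPM in spleen ZsGreen+ cells. Of these, 5 were tested and 0 passed in the spleen sort. Lyz2 had 7.65 and 9.96 CPM in spleen ZsGreen- and 7.61 and 4.03 CPM in spleen ZsGreen+ cells. Csf1r had 5.40 and 0.920 against 2.02 and 0.343 CPM, and Itgam 3.90 and 0.613 against 1.97 and 0.343 CPM. Cd14 went the other way, at 0.428 and 0.460 against 0.692 and 0.771 CPM. Spi1 and Adgre1 were lower in ZsGreen+ cells of experiment 1 but not of experiment 2. Csf3r, the receptor of granulocyte growth factor, was at most 0.214 CPM anywhere and 0 in 5 libraries. The part of myeloid RNA in the Cebpa difference was not tested.

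The other members that fell in spleen ZsGreen+ cells changed less. Tox, at 229 and 322 CPM in ZsGreen- and 180 and 148 CPM in ZsGreen+ cells, fell by 0.75 ± 0.18 on the log2 scale (adjusted p = 0.0275). Pou2af1, at 90.0 and 81.2 against 68.8 and 50.7 CPM, fell by 0.53 ± 0.14 (adjusted p = 0.0341). Tox2 had 231 and 461 against 177 and 251 CPM, which overlap across experiments, and fell by 0.63 ± 0.18 (adjusted p = 0.0489). These 3 calls did not hold with every library left out. Tox was not called without replicate 2 of either spleen group or without either Peyer's patch ZsGreen- library, which enter through the shared spread, and its fold change was -0.42 without spleen ZsGreen- replicate 2 (adjusted p = 0.293). Pou2af1 was not called without spleen ZsGreen- replicate 2 or either spleen ZsGreen+ library (highest adjusted p 0.298). Tox2 was called with 2 of 8 libraries left out, spleen ZsGreen- replicate 1 and Peyer's patch ZsGreen- replicate 2 (highest adjusted p otherwise 0.426). With library totals in place of TMM the 3 genes were not called, and Tox2 was also not called with RLE size factors (adjusted p = 0.0560) or with limma on the deposited values (adjusted p = 0.0650), which leaves it called in 5 of 15 alternatives.

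Batf was the member that rose in spleen ZsGreen+ cells. It had 75.9 CPM in ZsGreen- and 133 CPM in ZsGreen+ cells of experiment 1, and 345 and 455 CPM in experiment 2. Its log2 fold change was 0.60 ± 0.16 (adjusted p = 0.0375), and the groups overlapped across experiments. Batf was not called without spleen ZsGreen- replicate 1, where its fold change was 0.38 (adjusted p = 0.302), or without either spleen ZsGreen+ library.

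Proliferation genes moved with the same sort. Of 10 such genes 9 rose in spleen ZsGreen+ cells, where 4.53% of all genes tested rose. Kif11, a spindle motor, rose by 1.38 ± 0.18 (adjusted p = 0.000908). Mki67, the gene of the Ki-67 antigen, had 254 and 42.8 CPM in ZsGreen- against 576 and 105 CPM in ZsGreen+ cells. Proliferation genes also moved with the tissue. In ZsGreen+ cells 9 of the 10 were lower in Peyer's patch than in spleen (median -1.57), as were 7.17% of all genes tested. In ZsGreen- cells 5 of 10 were lower (median -0.78), as were 3.68% of all genes. The part of proliferation in the differences of Batf, Cebpa, Tox, Tox2 and Pou2af1 between sorts was not tested. Nor was its part in those of Cebpa, Tox2, Pou2af1, Bcl6 and Maf between tissues.

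Bcl6, Ascl2, Irf4 and Maf did not pass in the spleen sort. Bcl6 had 110 and 46.0 CPM in ZsGreen- and 82.8 and 16.6 CPM in ZsGreen+ cells, lower in ZsGreen+ cells of both experiments, with -0.92 ± 0.27 (adjusted p = 0.0921). Its difference within experiment 1 was -0.41 and within experiment 2 -1.46. Ascl2 had 10.9 and 42.6 against 5.32 and 4.37 CPM, a log2 fold change of -2.21 ± 0.74 (adjusted p = 0.185). Without spleen ZsGreen- replicate 2, its highest library, it was -1.22 (adjusted p = 0.270). DESeq2 called both genes lower (adjusted p = 0.0133 for Bcl6 and 0.00130 for Ascl2), as did limma on the deposited normalized values (adjusted p = 0.0493 and 0.0352). Irf4 had 54.1 and 25.8 against 65.2 and 63.1 CPM, at 0.89 ± 0.58 (adjusted p = 0.487), and Maf 658 and 148 against 714 and 145 CPM, at 0.04 ± 0.16 (adjusted p = 0.913).

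**Figure D2:**
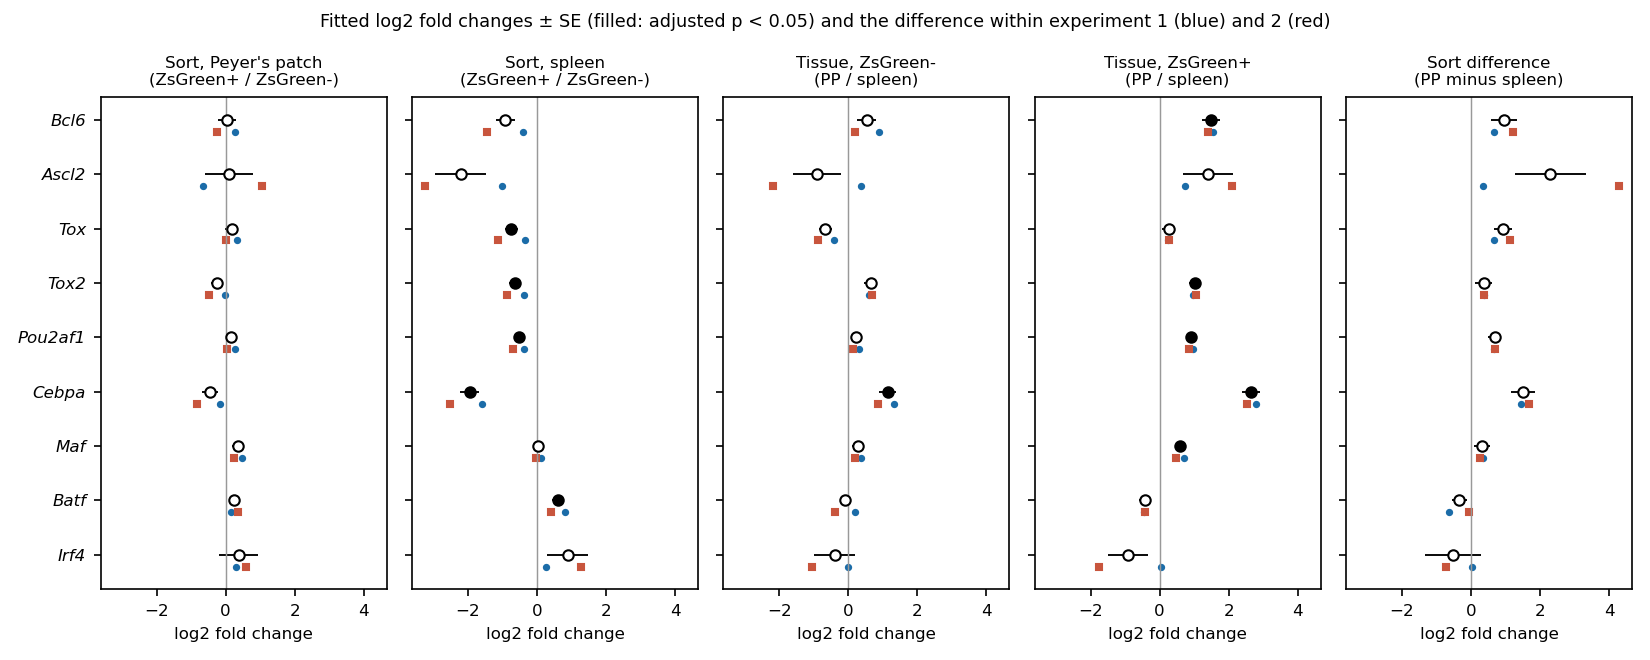
Log2 fold change (x axis) of each gene (y axis) in the 4 comparisons and in the difference between the sorts. Black points are fitted values ± SE, filled where the adjusted p is under 0.05, and blue circles and red squares are the difference of log2 CPM within experiments 1 and 2. In spleen ZsGreen+ cells 4 members are lower and 1 is higher, and against Peyer's patch ZsGreen+ cells 5 members differ.

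A direct test asked whether the sort differed between the tissues. No member passed, where 0.0971% of the genes tested passed (0.0277% higher, 0.0694% lower). By an unadjusted p under 0.05, 4 members did (Bcl6, Tox, Pou2af1 and Cebpa), against 1223 of all genes, and DESeq2 called 1, Cebpa (adjusted p = 0.0176). The differences of log2 fold changes, Peyer's patch minus spleen, were 1.51 ± 0.35 for Cebpa (adjusted p = 0.205, edgeR), 0.92 ± 0.26 for Tox (adjusted p = 0.257) and 0.68 ± 0.19 for Pou2af1 (adjusted p = 0.261). All 3 had the same sign in both experiments, at 1.45 and 1.67 for Cebpa. Without spleen ZsGreen- replicate 1, Bcl6 (1.44, adjusted p = 0.0209), Tox (1.22, adjusted p = 0.0293) and Cebpa (2.01, adjusted p = 0.0120) passed. Cebpa also passed without Peyer's patch ZsGreen+ replicate 2 (1.74, adjusted p = 0.0196).

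The second question was how the tissues differ within one sort. Among ZsGreen+ cells, those of Peyer's patch had more Cebpa, Tox2, Pou2af1, Bcl6 and Maf mRNA than those of spleen. These 5 of 9 members passed the test, all higher in Peyer's patch, where 12.7% of the genes tested passed (5.51% higher, 7.17% lower). The members' median log2 fold change was 0.92, beside 0.01 over all genes. The spleen ZsGreen+ libraries enter both this comparison and the spleen sort, so these comparisons are not independent.

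Cebpa stood at 316 and 15.003 CPM in Peyer's patch ZsGreen+ against 45.7 and 2.49 CPM in spleen ZsGreen+ cells, a 6.31-fold difference (log2 2.66 ± 0.26, adjusted p = 0.000353). Bcl6 had 244 and 44.2 CPM against 82.8 and 16.6 CPM. It was higher in Peyer's patch in both experiments, by 1.56 and 1.40 on the log2 scale, and the fitted difference was 1.49 ± 0.27 (adjusted p = 0.0111), or 2.80-fold. Tox2, with 348 and 524 against 177 and 251 CPM, was 1.02 ± 0.18 higher (adjusted p = 0.00272). Pou2af1, with 135 and 91.8 against 68.8 and 50.7 CPM, was 0.92 ± 0.14 higher (adjusted p = 0.00103). Maf, at 1164 and 202 against 714 and 145 CPM, was 0.59 ± 0.16 higher (adjusted p = 0.0321).

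Cebpa and Pou2af1 passed with each library left out in turn, with adjusted p at most 0.00421 and 0.0186. Tox2 lost its call without spleen ZsGreen+ replicate 2 (0.82, adjusted p = 0.0638), and Bcl6 without that library (1.30, adjusted p = 0.0647) or without Peyer's patch ZsGreen+ replicate 1 (1.13, adjusted p = 0.0708). Maf lost its call without Peyer's patch ZsGreen- replicate 2 or any of the 4 ZsGreen+ libraries (highest adjusted p 0.280).

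Batf had the opposite sign, at 98.2 and 340 CPM in Peyer's patch ZsGreen+ and 133 and 455 CPM in spleen ZsGreen+ cells (-0.43 ± 0.16, adjusted p = 0.0979). It was -0.44 and -0.42 within experiments 1 and 2, and DESeq2 called it (-0.47, adjusted p = 0.0433). Tox did not pass (214 and 179 against 180 and 148 CPM, 0.26 ± 0.18, adjusted p = 0.395). Ascl2 (1.39 ± 0.73, adjusted p = 0.319) and Irf4 (-0.91 ± 0.58, adjusted p = 0.419) did not pass, and Irf4 had 67.0 and 65.2 CPM in experiment 1 but 18.6 and 63.1 CPM in experiment 2.

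Among ZsGreen- cells, 1 member passed, Cebpa, where 5.49% of the genes tested passed (1.82% higher and 3.68% lower in Peyer's patch). It had 350 and 27.0 CPM in Peyer's patch against 139 and 14.9 CPM in spleen, 1.15 ± 0.25 (adjusted p = 0.0325), and lost its call without either Peyer's patch ZsGreen- library or without spleen ZsGreen- replicate 1, where it was 0.66 (adjusted p = 0.224). Tox2 was higher in Peyer's patch in both experiments (352 and 735 against 231 and 461 CPM, 0.64 ± 0.18, adjusted p = 0.0576). Tox was lower in both (172 and 176 against 229 and 322 CPM, -0.66 ± 0.18, adjusted p = 0.0614), and DESeq2 called both genes (adjusted p = 0.00749 and 0.0260). Bcl6 was 0.53 ± 0.27 (adjusted p = 0.371), and without spleen ZsGreen- replicate 2 it was 1.01 and passed (adjusted p = 0.0110). The members' median was 0.23, beside 0.00 over all genes.

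The order of the 4 groups was the same in both experiments for 3 members. Cebpa and Tox2 ran from Peyer's patch ZsGreen- down through Peyer's patch ZsGreen+ and spleen ZsGreen- to spleen ZsGreen+, and Pou2af1 ran the same way with the Peyer's patch sorts exchanged. The 2 sorts of Peyer's patch, neighbours in each order, did not pass a difference in any of the 3 genes, and Cebpa in Peyer's patch ZsGreen+ and spleen ZsGreen- cells stood at 15.003 and 14.9 CPM in experiment 2. Spleen ZsGreen+ was the lowest group in both experiments for Bcl6, Ascl2, Tox2, Pou2af1 and Cebpa and the highest in both for Batf. The other 6 members had different orders in the 2 experiments. How many of all genes tested share such orders or extremes was not counted.

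Some members varied together across the 8 libraries once the experiment mean was subtracted from log2 CPM. Pearson's r was 0.932 to 0.977 among Bcl6, Pou2af1, Cebpa and Tox2, whose start site sequences are given above. Batf and Irf4 ran with each other (r = 0.742) and against Cebpa (-0.797 and -0.736) and Tox2 (-0.755 and -0.804). Ascl2 ran with Tox (0.783), and Maf with Pou2af1 (0.764) and Bcl6 (0.704). These values describe 8 libraries that share their experiment, depth scaling and 4 groups. Among 9054 genes, the one ranked 100 by r still had 0.947 for Bcl6, 0.946 for Pou2af1, 0.966 for Cebpa and 0.963 for Tox2.

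**Figure D3:**
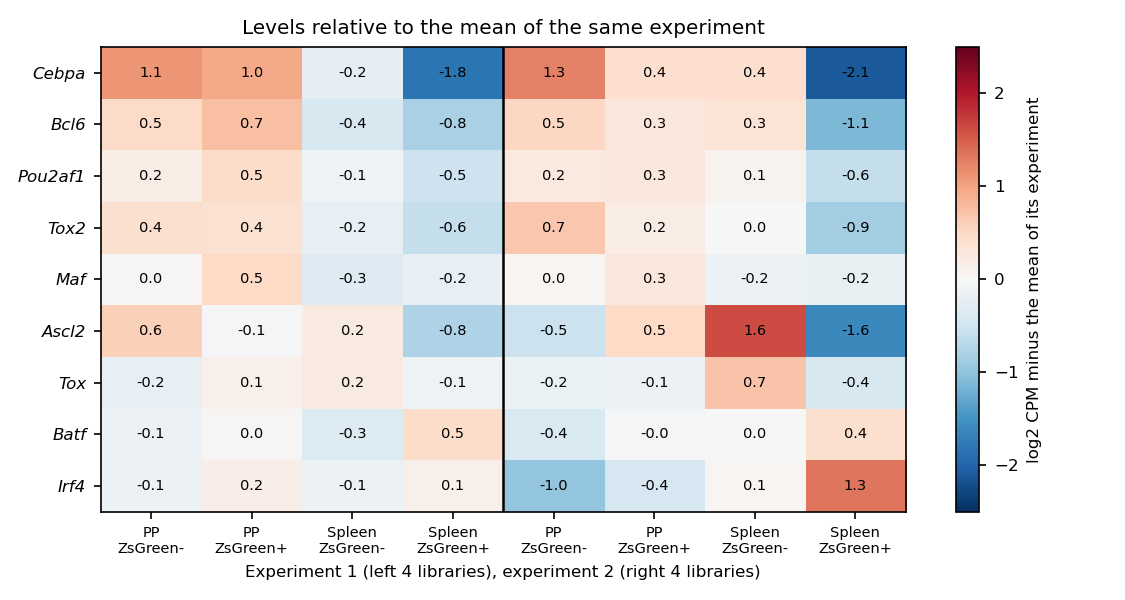
Log2 CPM of each gene (rows) in each library (columns) minus the mean of its experiment, with experiment 1 left of the line and experiment 2 right of it. Cebpa, Bcl6, Pou2af1 and Tox2 are lowest in spleen ZsGreen+ in both experiments, and Ascl2 is highest in spleen ZsGreen- of experiment 2.

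Prdm1, the antagonist of Bcl6, was low in Peyer's patch. It had 0.708, 0.443, 1.24 and 2.10 CPM in the Peyer's patch libraries (ZsGreen- replicates 1 and 2, then ZsGreen+ 1 and 2) and 6.74, 5.06, 9.96 and 10.5 CPM in the same order in spleen, so the tissues did not overlap. Peyer's patch over spleen, its log2 fold change was -3.29 ± 0.46 in ZsGreen- (adjusted p = 0.00147) and -2.63 ± 0.40 in ZsGreen+ cells (adjusted p = 0.00115). Within a tissue its sort did not pass (adjusted p = 0.420 in Peyer's patch and 0.244 in spleen). The ratio of Bcl6 to Prdm1 per kilobase of exon was 240 and 98.5 in Peyer's patch ZsGreen- and 165 and 17.5 in Peyer's patch ZsGreen+ cells. In spleen it was 13.6 and 7.57 in ZsGreen- and 6.92 and 1.31 in ZsGreen+ cells. The Peyer's patch ratios rest on 4 to 28 counts of Prdm1 a library.

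**Figure D4:**
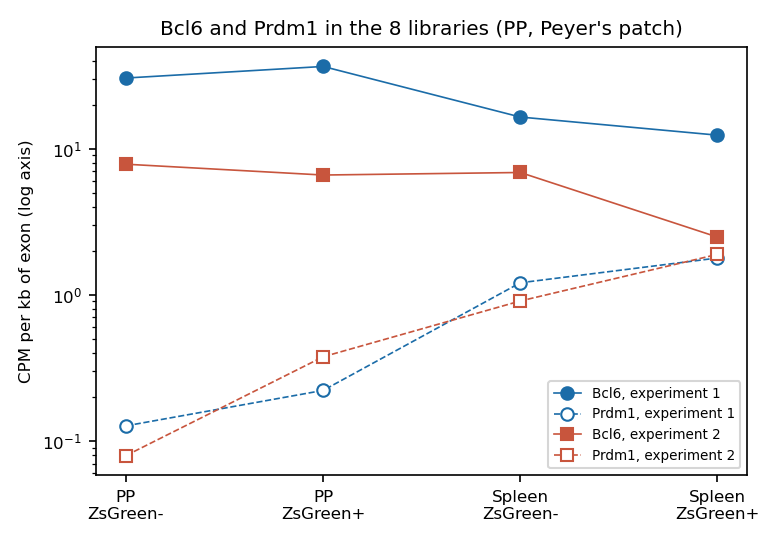
Bcl6 (filled symbols, solid lines) and Prdm1 (open symbols, dashed lines) in CPM per kilobase of exon on a log axis over the 4 groups, blue for experiment 1 and red for experiment 2. The 2 genes come closest in spleen ZsGreen+ cells of experiment 2, at 2.48 and 1.89 CPM per kilobase.

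Genes known to be held down through BCL6 were lower in Peyer's patch. Of 11 tested, 10 fell from spleen to Peyer's patch in ZsGreen+ and 8 in ZsGreen- cells, with none higher. Of all genes tested, 7.17% and 3.68% fell. The list's median log2 fold change was -2.37 and -1.34, beside 0.01 and 0.00 over all genes. Bcl6 itself passed between tissues in ZsGreen+ but not in ZsGreen- cells (adjusted p = 0.371, edgeR). The part of BCL6 in the differences of this list was not tested. Among ZsGreen+ cells Klf2, which limits Tfh formation and supports T cell egress, fell by 3.03 ± 0.20 (adjusted p = 9.07e-06) and S1pr1, the egress receptor, fell by 1.93 ± 0.16 (adjusted p = 2.27e-05). Within spleen the same list split. Ccr7, a homing receptor for lymphoid tissue, was lower in ZsGreen+ cells (-1.88 ± 0.24, adjusted p = 0.00228), as was Klf2 (-1.09 ± 0.18, adjusted p = 0.00381). Runx2, a Runt-family factor, rose by 1.29 ± 0.21 (adjusted p = 0.00366), as did Id2, an inhibitor of E proteins, by 1.01 ± 0.20 (adjusted p = 0.00898).

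Tfh effector and surface genes were measured alongside. Of 15 tested, 7 fell in spleen ZsGreen+ cells, where 4.09% of all genes tested fell. None of the 15 rose there, and 0 passed in the Peyer's patch sort. Cxcr5, whose protein was sorted on, fell by 1.69 ± 0.17 in spleen ZsGreen+ cells (adjusted p = 0.000127), and Il6st, the shared receptor subunit for IL-6, fell by 1.73 ± 0.19 (adjusted p = 0.000309). Against spleen ZsGreen+ cells, 7 of the 15 were higher in Peyer's patch ZsGreen+ cells, where 5.51% of all genes tested were higher. None of the 15 was lower, and Cxcr5 led (2.47 ± 0.17, adjusted p = 1.07e-05). Among ZsGreen- cells 1 was higher in Peyer's patch, Cxcr5, and 2 were lower, Il10 and Il6ra. Of all genes tested, 1.82% were higher and 3.68% lower there. Il10 had 1 count in each Peyer's patch ZsGreen- library.

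The other Tfh regulators moved unevenly. Of 16 Tfh-promoting factors, 3 fell in spleen ZsGreen+ cells, where 4.09% of all genes tested fell. Among the 3 were Tcf7 (-1.25 ± 0.22, adjusted p = 0.00541) and Lef1 (-0.57 ± 0.14, adjusted p = 0.0297). Rbpj, the DNA-binding partner of NOTCH, rose by 1.82 ± 0.15 (adjusted p = 4.31e-05), and its sort differed between tissues (-1.61 ± 0.22, adjusted p = 0.0181), with 158.9 and 42.6 CPM in spleen ZsGreen+ against 10.97 to 40.4 CPM in the other 6 libraries. Of 9 Tfh-opposing factors, Id3 (-1.62 ± 0.19, adjusted p = 0.000624), Klf2 and Foxp1 (-0.79 ± 0.14, adjusted p = 0.00512) fell in spleen ZsGreen+ cells and Id2 rose. In Peyer's patch neither list had a member past the threshold in the sort.

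Factors of the other helper lineages were also tested, 11 in all. In spleen ZsGreen+ cells Ahr, the aryl hydrocarbon receptor, rose by 1.65 ± 0.20 (adjusted p = 0.000514), and Rora rose too, while Eomes, Foxp3 and Ikzf2 fell. In Peyer's patch ZsGreen+ cells Eomes and Foxp3 fell. From spleen to Peyer's patch 7 of 11 fell in ZsGreen+ cells and 1 rose, Ikzf2, where 7.17% of all genes tested fell and 5.51% rose. In ZsGreen- cells 5 fell, where 3.68% of all genes did.

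Partners and relatives of the members were tested too, against 8.62% of all genes that passed in the spleen sort. Among 15 corepressors of BCL6, spleen ZsGreen+ cells had more Tbl1x (0.67 ± 0.13, adjusted p = 0.00987), and 2 of the 15 passed in all. Of 8 AP-1 and IRF partners of BATF and IRF4, 1 passed in the spleen sort, Irf8, at -2.498 ± 0.22 (adjusted p = 6.13e-05). Among 15 family relatives of the members 4 fell in that sort, where 4.09% of all genes tested fell. They were Irf8, which is in both lists, Irf7, Irf2 and Irf9. In the Peyer's patch sort, where 0.437% of all genes passed, no gene of the 3 lists did.

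**Figure D5:**
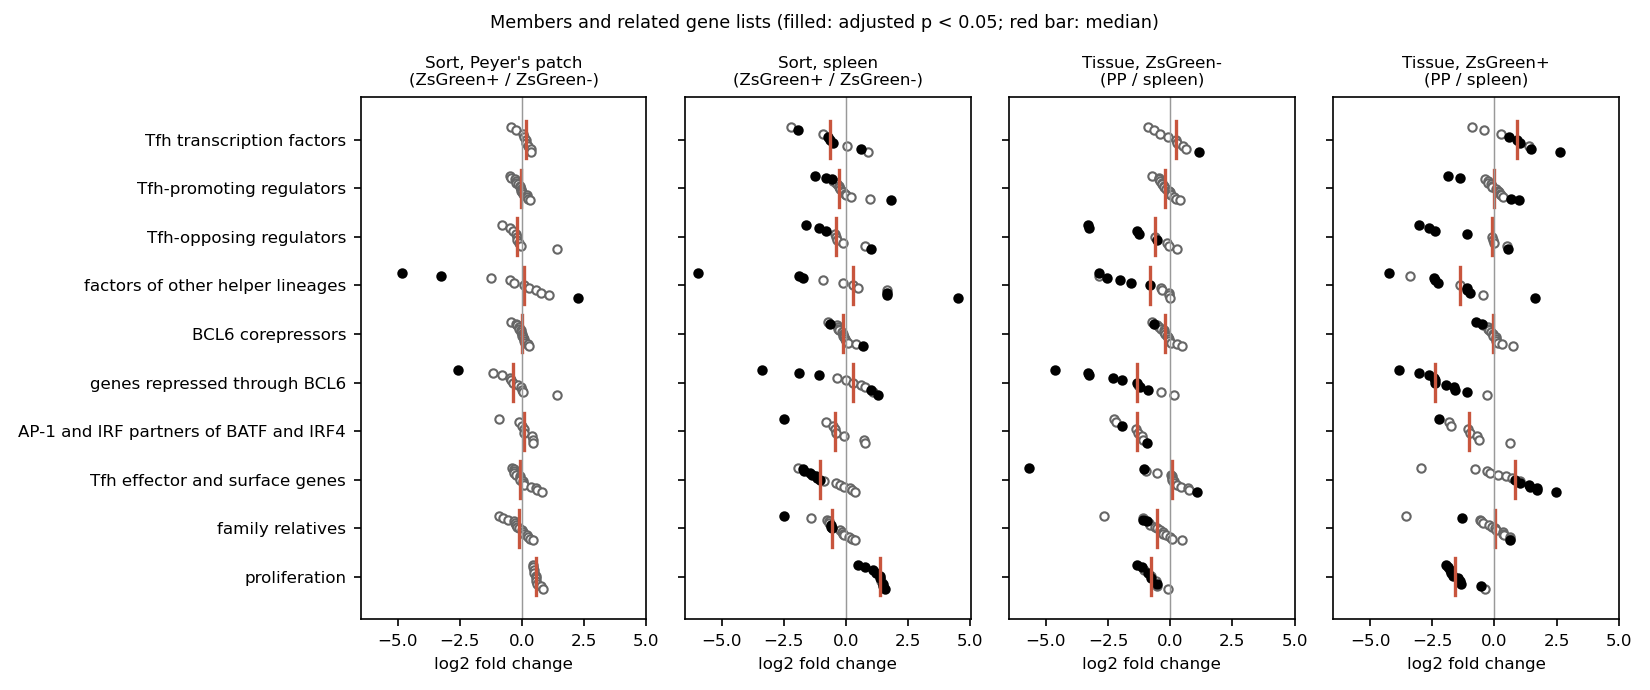
Log2 fold change (x axis) of each gene of the members and of 9 related lists (y axis) in 4 comparisons; filled points have an adjusted p under 0.05, and the red bar is the list's median. In Peyer's patch the sort leaves the 9 members unfilled, and 10 of the 11 genes repressed through BCL6 lie filled and below 0 between Peyer's patch and spleen ZsGreen+ cells.

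Among ZsGreen+ cells, some markers of B cells, which also express Pou2af1 and Bcl6, differed with the tissue. The 10 B cell genes summed to 338 and 543 CPM in Peyer's patch ZsGreen+ and to 131 and 175 CPM in spleen ZsGreen+ cells, and 3 of 9 tested passed, all higher in Peyer's patch (Pax5, Cd22 and Ighm). In ZsGreen- cells the sums were 399 and 686 CPM in Peyer's patch and 240 and 734 CPM in spleen. The tissues differed in opposite ways in the 2 experiments, and 1 gene passed (Pax5). In the spleen sort the sums went from 240 and 734 CPM in ZsGreen- to 131 and 175 CPM in ZsGreen+ cells. Of 9 B cell genes 2 fell there (Cd22 and Ighm). Ighm made up most of each sum. Cd79a was at most 6.47 CPM and Ms4a1 at most 4.33 CPM, and each was at 0 in 2 of the 4 spleen libraries. Pax5 stood at 21.9 and 2.77 CPM in Peyer's patch ZsGreen- and 37.0 and 1.80 CPM in Peyer's patch ZsGreen+ cells. In spleen it had 3.53 and 0.460 CPM in ZsGreen- and 1.28 and 0.0857 CPM in ZsGreen+ cells. Cd22 had 51.6 and 13.4 CPM in Peyer's patch ZsGreen- and 14.4 and 4.13 CPM in ZsGreen+ cells. In spleen Cd22 had 33.5 and 17.0 against 2.08 and 0.943 CPM. The 5 regulatory T cell markers went different ways. In spleen ZsGreen+ cells Foxp3, Gpr83 and Ikzf2 fell, while Il2ra rose (4.97 and 3.22 CPM in ZsGreen- against 20.7 and 13.6 CPM) and Ctla4 did not pass (1.49 ± 0.83, adjusted p = 0.426). In Peyer's patch ZsGreen+ cells Foxp3 and Gpr83 fell. Between tissues, ZsGreen+ cells of Peyer's patch had less Foxp3 and Il2ra and more Ikzf2 and Gpr83, and ZsGreen- cells had less Foxp3. Foxp3 ranged from 0.375 to 34.2 CPM over the 8 libraries, and the summed list was 366 and 338 CPM in Peyer's patch ZsGreen-, 582 and 348 in Peyer's patch ZsGreen+, 468 and 579 in spleen ZsGreen- and 298 and 914 CPM in spleen ZsGreen+ cells. Among the 7 myeloid genes, Lyz2 was higher and Itgam lower in Peyer's patch ZsGreen+ cells, at a summed 34.2 and 16.9 CPM against 14.0 and 6.0 CPM in spleen. The 6 plasma cell genes summed to 361 and 194 CPM in Peyer's patch ZsGreen- and 220 and 273 CPM in Peyer's patch ZsGreen+ cells. In spleen they summed to 81.6 and 213 CPM in ZsGreen- and 113 and 277 CPM in ZsGreen+ cells. None of the 6 passed between tissues. Among ZsGreen+ cells Igha had 105 and 61.5 CPM in Peyer's patch against 7.72 and 0.857 CPM in spleen. Xbp1 had 71.9 and 181 against 80.2 and 269 CPM. The part of these cells in the members' differences between tissues and sorts was not tested.

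Genes whose pattern was most like each member's were ranked by Pearson's r over the 8 libraries after the experiment mean was removed, among 9054 genes with a mean log2 CPM of at least 3. Bcl6 was most like Slc26a11 (r = 0.995), Dcaf8 and Cbx6, and Cebpa most like Tspan3 (0.996), Dcaf11 and Pear1. Tox2 was most like Zbtb18 (0.996), Fgf13 and Dennd2d, and Pou2af1 most like Cbx6 (0.988), Phf20 and Habp4. For Batf the leading genes were Sec61b (0.985), Pspc1 and Abcc1, and for Irf4 they were Ninj1 (0.983), Ctla4 and Odc1. Maf led with Pafah1b3 (0.986) and Aasdhppt, Tox with Brpf3 (0.988), Ngly1 and Msi2, and Ascl2 with Neurl4 (0.963), Trit1 and Stard10. Such values are common with 8 libraries in 4 groups, since the gene ranked 100 for Cebpa still had r = 0.966.

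The gene models of the members, in the mm39 coordinates of the deposited tables, were as follows. Bcl6 lies at chr16:23783802-23807602 on the minus strand, Ascl2 at chr7:142520566-142523001 (minus) and Tox at chr4:6686353-6991557 (minus). Tox2 lies at chr2:163045045-163166090 (plus), Pou2af1 at chr9:51125008-51151380 (plus) and Cebpa at chr7:34818718-34821353 (plus). Maf lies at chr8:116409681-116434533 (minus), Batf at chr12:85733443-85755861 (plus) and Irf4 at chr13:30933209-30950959 (plus). All 9 are annotated as protein coding.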

How the data were processed

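Estimated counts (expected counts) per gene were deposited by the authors for 8 libraries, in 1 table for each of 2 experiments. The deposited normalized tables hold a signal in which every count of a library was scaled by the same factor, set separately for each experiment. The submitters' processing notes name Partek, STAR, DESeq2 and the build mm39, without versions or settings. Counts were rounded and tested with edgeR 4.0.16 in R 4.3.3 (quasi-likelihood, robust, TMM scaling with factors from 0.656 to 1.24; filterByExpr with minimum count 10 and minimum total 15), with 4 group means, an experiment term and 3 residual degrees of freedom. Of 18114 and 20397 genes per table, 16735 were in both. The labels' replicate number names the experiment and so pairs the libraries: for each of the 6 pairs of groups, same-numbered libraries deviated together from their group means (lowest r 0.825, highest 0.867 across genes).

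Adjusted p-values (Benjamini-Hochberg over the 14418 genes tested, two-sided) used a threshold of 0.05. Log2 CPM had a prior count of 2. Each SE was derived from the F statistic. Levels per kilobase used GENCODE M21 exon lengths (GRCm38), a build other than that of the tables. The 9 members, the gene lists and the tests were chosen with earlier results of these data known. Named genes were the members, up to 4 called genes with the smallest p per list and comparison, Prdm1, and the 3 most alike genes per member, 1 of which (for Maf) has a clone name and is not printed; markers and other genes beside them were named after their values were seen. In data simulated for the spleen sort the model recovered known folds at the median. Where the spread was set gene by gene, more false calls arose than the threshold allows. The other comparisons were not simulated. Alternatives were size factors by RLE or library totals, DESeq2 1.42.0, no filter or a minimum count of 50, no experiment term, limma 3.58.1 on log2 of the deposited normalized values plus 1, and each library left out. A few genes of these lists that passed are not reported here.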

Additional observations from a re-analysis of the deposited data

How the results depend on the processing

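With no replicate block (no experiment term) 0 genes and 0 members passed in any of the 5 comparisons, so every call rests on pairing by experiment. Using library totals in place of TMM moved the median log2 fold change of all genes by 0.11 in the Peyer's patch sort, 0.14 in the spleen sort, 0.16 in the ZsGreen- and 0.13 in the ZsGreen+ tissue comparison. It raised the share of calls that were higher from 52.5% to 67.5% in the spleen sort, from 28.6% to 48.7% in the sort difference, and from 33.1% to 46.0% (ZsGreen-) and 43.4% to 53.6% (ZsGreen+) between tissues. In the Peyer's patch sort 63 genes passed, against 170 with library totals and 147 with DESeq2. In the sort difference 14 passed, against 113 with library totals (2 members), 144 with DESeq2 (1 member), 47 with no filter and 2 with limma. Between tissues in ZsGreen- cells 3 members passed, not 1, with library totals, DESeq2 or no filter. In the spleen sort library totals also called Bcl6, Ascl2 and Irf4, and in the ZsGreen+ tissue comparison Ascl2 and Irf4.

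With each library left out in turn, 7 to 88 genes (0 members) passed in the Peyer's patch sort, 487 to 1357 (1 to 6 members) in the spleen sort, and 2 to 93 (0 to 3 members) in the sort difference. Between tissues 313 to 893 genes (0 to 3 members) passed in ZsGreen- and 863 to 1965 (2 to 6 members) in ZsGreen+ cells. No member that passed the test changed sign under any alternative. Uncalled members did: in the Peyer's patch sort the leave-outs spanned -0.31 to 0.30 for Bcl6, -0.61 to 1.01 for Ascl2 and -0.12 to 1.11 for Irf4, and in the spleen sort -0.065 to 0.145 for Maf and -0.014 to 1.61 for Irf4. They spanned -1.21 to 0.41 for Irf4 in the sort difference, and between tissues in ZsGreen- cells -1.79 to 0.056 for Ascl2, -0.31 to 0.13 for Batf and -1.12 to 0.04 for Irf4. Batf there was 0.094 with library totals, against -0.09. The cause was not tested. With 2 libraries a group and 3 residual degrees of freedom, low counts (29 for Cebpa, 51 for Ascl2 in 1 library) limit the precision.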
